A study of Mus musculus with 8 samples.

Results

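The LDL receptor-related proteins examined here are Lrp5, the gene targeted in the series, its close relative Lrp6, Lrp4, Lrp1, Lrp8, Lrp10, Lrp11, Lrp12, Vldlr and the chaperone gene Lrpap1. Every probe to which the platform annotation gives one of these symbols was taken, which gave 14 probes for 9 of the 10 genes, out of 25697 probes and 16593 genes with a symbol in all. No probe was named for Lrp8, a reelin receptor, so it is not analysed here. The cells were osteoblasts, which lay down bone, in primary culture from the calvaria (the roof of the skull) of C57Bl/6 mice, in 2 groups of 4 arrays labelled Lrp5-/- (knockout) and Lrp5+/+ (control). Differentiation began 48 hours after infection with an adenovirus that carried either Cre recombinase or GFP, a fluorescent protein, and the labels do not tie either virus to a group. It ran for 7 days with ascorbic acid at 50 ug/ml and beta-glycerol phosphate at 10 mM, and total RNA was hybridised to Illumina arrays. The sources used here give no age and no number of animals per culture. Whether replicate arrays stand for different mice or different dishes is not stated, so each p-value reflects array-to-array spread that may be technical only.

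Proteins of the LDL receptor family are single-pass membrane receptors that carry ligand-binding repeats and, in many but not all, propeller domains outside the cell. Some, such as Lrp1 and Vldlr, take up lipoproteins, proteases and their inhibitors, while Lrp5 and Lrp6 bind Wnt ligands together with Frizzled proteins and pass the signal to beta-catenin. In bone, loss of LRP5 function is known to lower bone mass in people, and Lrp4 is known to present the Wnt antagonist sclerostin to Lrp5 and Lrp6.

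Between 9685 and 10363 probes (37.7% to 40.3%) were detected per array, a probe being called detected at a detection p under 0.01. Of the osteoblast markers, Col1a1, Col1a2, Sparc, Sp7, Alpl and Pth1r were detected on all 8 arrays, the matrix protein gene Ibsp on 1 control and 4 knockout-labelled arrays, and the late markers Bglap, Phex and Dmp1 on none, while Runx2 and Spp1 had no named probe. The 7 that were tested all lay above 0 in the comparison, by 0.04 (Sparc) to 0.58 (Ibsp), and 0 passed the threshold (lowest limma adjusted p 0.0561, for Col1a2). The median change of all genes tested was 0.00. Ibsp met the detection filter through the knockout-labelled arrays, which favours a rise, and the next largest change was 0.34 (Col1a2). Of 9 macrophage and leukocyte markers with a named probe, 6 passed the detection filter, all 6 of them below 0 in the comparison. Tyrobp met the filter with 3 control arrays and 1 knockout-labelled array, which favours a fall. Ptprc, Itgam and Fcer1g were detected on no array. No adipocyte marker was detected (0 of 7 on any array). Fewer cells of a type and less RNA per cell cannot be told apart in these bulk samples. Changes below are knockout-labelled minus control on the log2 scale.

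The probe for Lrp5, ILMN_2942097, was not lower on the knockout-labelled arrays. Its intensity was 149, 179, 149 and 164 on control arrays 1 to 4, and 141, 153, 163 and 197 on knockout-labelled arrays 1 to 4. The groups overlapped, and knockout-labelled array 1 was the lowest and array 4 the highest of the 8. The detection p-values were 0.0301, 0.00627, 0.0188 and 0.0163 in control and 0.0163, 0.01003, 0.00376 and 0.00376 in knockout-labelled arrays, so that 1 and 2 arrays counted as detected. Set against the lowest intensity that was detected on the same array, the Lrp5 signal stood at 0.926 to 1.03 times that limit in control and at 0.957 to 1.09 times in knockout-labelled arrays. In both groups the signal lay at the edge of what these arrays register, and before normalization no difference was detectable at n = 4 (exact permutation p = 0.857).

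After normalization Lrp5 was 5.54 ± 0.12 log2 in control and 5.87 ± 0.26 log2 on the knockout-labelled side (SD, n = 4). Knockout-labelled arrays 3 and 4, at 6.07 and 6.10, lay above all control values, whereas arrays 1 and 2, at 5.63 and 5.66, lay within the control range of 5.43 to 5.70. The difference of 0.33 (SE 0.12; 95% interval 0.06 to 0.60, not adjusted for the number of genes) did not pass the threshold in the limma fit of all 16593 genes without a detection filter, in which 2.27% of genes did (adjusted p = 0.222). The exact two-sided permutation p was 0.0857, where the smallest that 4 against 4 arrays can give is 0.0286. With no background correction the difference was 0.11 (limma adjusted p = 0.246). The sources used here do not say where this probe lies relative to the deleted part of Lrp5, so its signal does not check the labels, and every direction below rests on them.

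**Figure D1:**
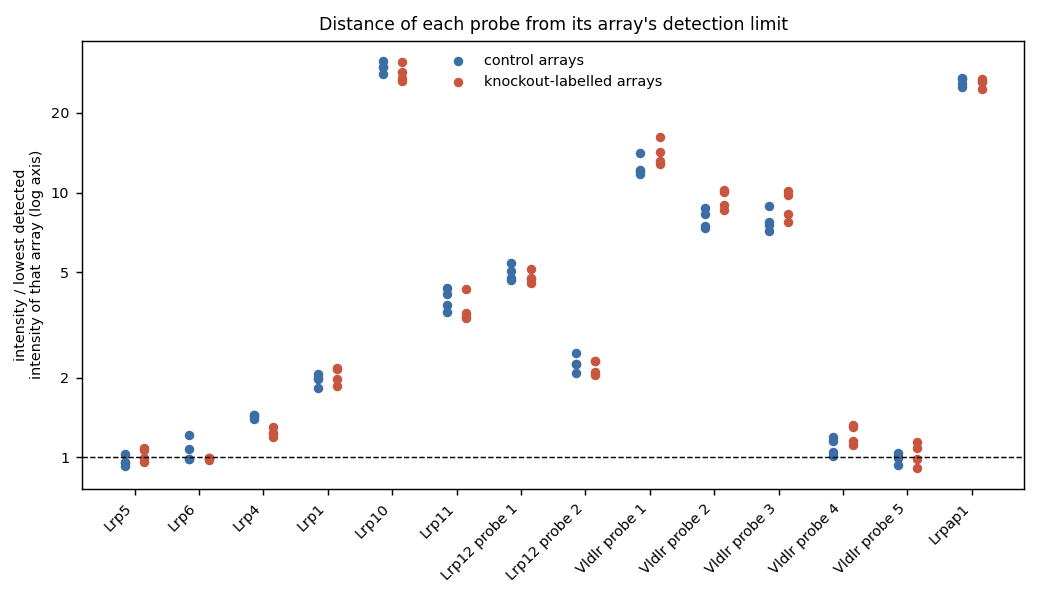
Intensity of each probe divided by the lowest detected intensity of its array (log axis; dashed line at 1) for the 4 control and the 4 knockout-labelled arrays. Lrp5 lies between 0.926 and 1.09 in both groups, and Lrp6 and Vldlr probe 5 are the other probes that cross the line; heights of different probes are not comparable with each other.

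Lrp6, the other Wnt coreceptor of this pair, was also close to background. Its probe, ILMN_2712949, gave intensities of 158, 172, 188 and 183 on the control arrays and 146, 152, 149 and 181 on the knockout-labelled arrays. It was detected on control arrays 3 and 4 and on 0 of 4 knockout-labelled arrays, where it stood at 0.976 to 0.994 times the lowest detected intensity. The normalized mean was 5.91 ± 0.38 for control and 5.72 ± 0.08 for knockout-labelled arrays (SD, n = 4), and the 4 knockout-labelled values, 5.63 to 5.81, fell inside the control range of 5.53 to 6.41. The measured difference was -0.19 (SE 0.16; limma adjusted p = 0.645 without a detection filter; exact permutation p = 0.429). The difference was -0.029 without control array 3, which stood at 6.41 (limma adjusted p = 0.951), and -0.32 without control array 2 (0.387). With no background correction it was -0.074. Lrp6 was not well above background on any knockout-labelled array, and no difference was detectable at this signal.

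Of the 7 members that passed the detection filter, detection on at least 4 of the 8 arrays, 0 rose and 1 fell past an adjusted p of 0.05, where 8.62% of the 7041 genes tested passed it in either direction, 3.54% higher and 5.08% lower. The median change of these 7 members was -0.01, against 0.00 over all genes tested, and their median change in size was 0.09, against 0.11. The member that fell was Lrp4. Lrp5 and Lrp6 did not pass the filter and are not among the 7.

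Lrp4, the receptor for agrin at the nerve-muscle synapse and a partner of sclerostin in bone, stood 1.25-fold lower on knockout-labelled than on control arrays. The intensity of its single probe, ILMN_1244134, was 228, 252, 225 and 238 in control and 182, 182, 189 and 237 in knockout-labelled arrays. Before normalization knockout-labelled array 4 lay within the control range, and this was also the array with the highest median intensity (155, against 126 to 154 on the others). Relative to each array's lowest detected intensity, the 4 control arrays stood at 1.39 to 1.45 and the 4 knockout-labelled arrays at 1.19 to 1.3, without overlap.

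Normalized, Lrp4 was 6.95, 6.85, 6.92 and 6.84 on the control arrays and 6.62, 6.34, 6.61 and 6.69 on the knockout-labelled arrays. All 4 knockout-labelled values were below all 4 control values, a separation that 16.8% of the genes tested showed in one direction or the other. The knockout-labelled mean of 6.57 ± 0.15 (SD, n = 4) was below the control mean of 6.89 ± 0.05 by 0.32 log2 (SE 0.08; 95% interval of the fold 1.11 to 1.42), with a limma adjusted p of 0.0339 and an exact two-sided permutation p of 0.0286, the smallest possible. Leaving out any 1 of control arrays 1 to 3 or of knockout-labelled arrays 1 to 3 ended the call (limma adjusted p 0.0566 to 0.0840), and the fall was 0.25 without knockout-labelled array 2, the lowest of the 8. It was also lost with no detection filter (0.0728) and with a trended and robust prior (0.0539). With no background correction the change was -0.16 and in the authors' deposited log2 values also -0.16, both past the threshold (0.0475 and 0.0458).

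Some marker genes of other cell types also differed between the groups. Cd74, Col2a1 and Egfl7 alone passed the threshold among the tested markers of the 5 lists that follow, where 8.62% of all genes tested did. Taken singly, 16.8% of all genes tested had groups that did not overlap. The summed normalized signal of the 9 macrophage and leukocyte markers was 3476 to 3817 in control and 2644 to 3212 in knockout-labelled arrays, without overlap, and Cd74, which guides MHC class II molecules to their compartment, was the 1 gene of the 6 tested that passed the threshold (-1.74). The sum of 8 chondrocyte markers was 1361 to 1716 in control and 2008 to 2149 in knockout-labelled arrays. Col2a1, the collagen of cartilage, was the 1 of 3 tested that rose past the threshold (0.45). Its log2 means were 10.29 in control and 10.73 in knockout-labelled arrays, and those of Sox9, the next brightest, 6.79 and 6.99. The sum therefore mostly reflects Col2a1. Of the 8 markers, 5 were detected on no array, Acan and Col10a1 among them. The sum of 8 endothelial markers was 551 to 585 against 490 to 550, and its 2 tested genes split, Egfl7 being lower (-0.45) and Esam at 0.32 (95% interval 0.10 to 0.55; limma adjusted p = 0.0748), while Pecam1, Cdh5 and Kdr were detected on no array. The sum of 8 osteoclast markers was 3412 to 3950 against 4036 to 4127, but 6 of the 8 were detected on no array, Acp5, Calcr and Oscar among them. The 2 tested were Ctsk at 0.17 (limma adjusted p = 0.114) and Nfatc1 at -0.08 (0.645). The 7 skeletal muscle markers summed to 213 to 246 and 216 to 245, but 6 of the 7 were detected on no array, Myod1, Myog and Des among them. The 1 tested was Tnnt1 at 0.23 (limma adjusted p = 0.399). The part of any of these in the Lrp4 difference was not tested.

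**Figure D2:**
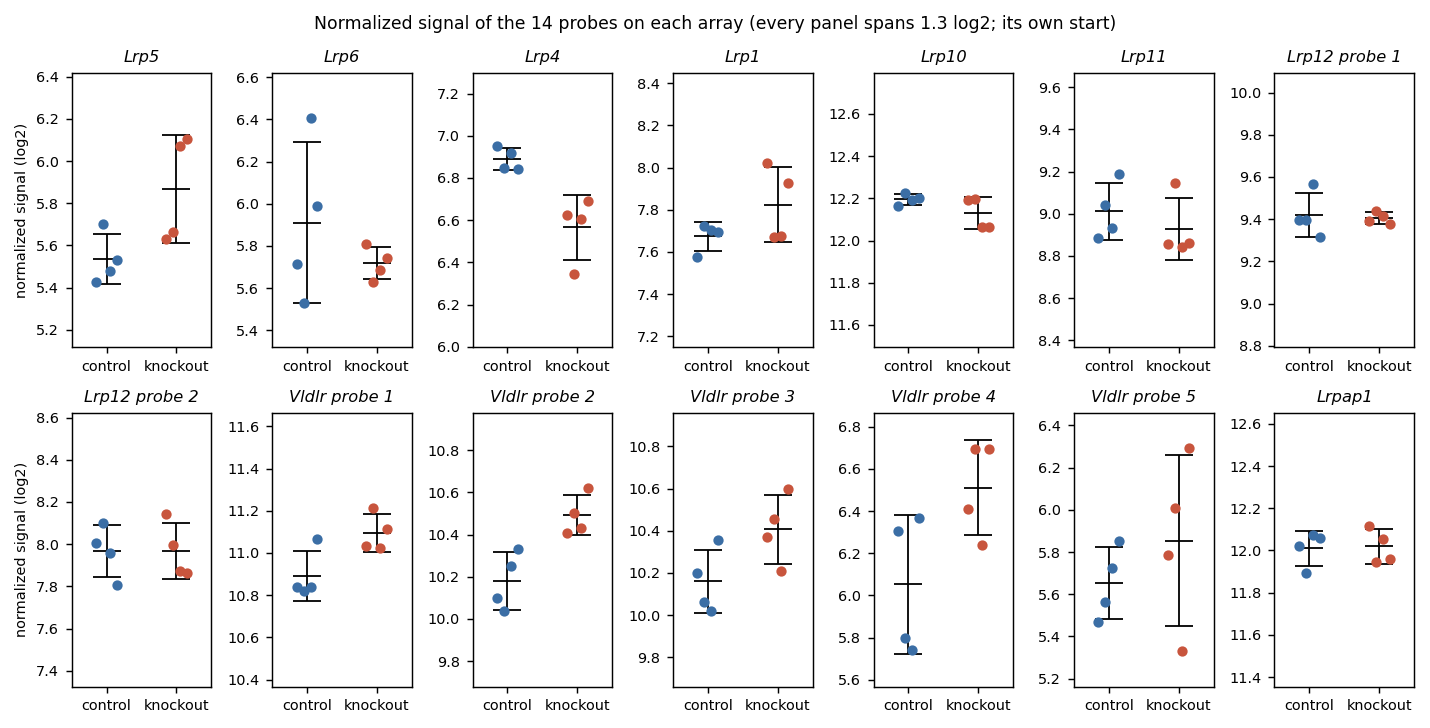
Normalized log2 signal of the 14 probes on each control (blue) and knockout-labelled (red) array; points are arrays and bars the mean ± SD of 4. The groups separate for Lrp4 (6.84 to 6.95 against 6.34 to 6.69) and for Vldlr probe 2 (10.04 to 10.33 against 10.41 to 10.62), and overlap for the other 12 probes.

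Vldlr, a receptor for triglyceride-rich lipoproteins and for reelin, was the only member with more than a pair of probes, and all 5 were higher on average in the knockout-labelled arrays, by 0.20 to 0.46 log2. The probes were read from the same RNA samples, so they are not independent replicates, and which transcripts each one matches is not known here. Ordered by mean signal they were ILMN_2796472, ILMN_2515601, ILMN_1218264, ILMN_1230923 and ILMN_2458671, referred to as probes 1 to 5.

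Probe 1, which stood for the gene in the fit of 7041 genes, had intensities of 1879, 2127, 1879 and 2411 in control and 1883, 2482, 2013 and 2589 in knockout-labelled arrays. Normalized, it was 10.84, 10.82, 10.84 and 11.07 in control and 11.03, 11.21, 11.02 and 11.11 in knockout-labelled arrays. Control array 4 alone overlapped the knockout-labelled values. The change of 0.20 (SE 0.08; 95% interval 0.04 to 0.37) did not pass the threshold (limma adjusted p = 0.120; exact permutation p = 0.0857). Without control array 4 it was 0.26 and passed (limma adjusted p = 0.0389). It also passed with no background correction (0.0406), in the authors' deposited log2 values (0.0422) and with a trended and robust prior (0.0323).

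Probe 2 separated the groups. Its normalized values were 10.10, 10.04, 10.25 and 10.33 in control and 10.41, 10.50, 10.43 and 10.62 in knockout-labelled arrays. With each of 9443 probes tested on its own, where 7.22% passed and 15.8% did not overlap, it was higher by 0.31 (SE 0.08; limma adjusted p = 0.0475; exact permutation p = 0.0286, the smallest possible). Its intensities before normalization did overlap, at 1176 to 1491 in control and 1263 to 1860 in knockout-labelled arrays.

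Probe 3 was 10.16 ± 0.15 in control and 10.41 ± 0.16 in knockout-labelled arrays, a change of 0.25 (SE 0.10) that did not pass (limma adjusted p = 0.160; exact permutation p = 0.0571). The dim probes 4 and 5 were more scattered. Probe 4 was detected on all 8 arrays at 1.01 to 1.33 times the lowest detected intensity and changed by 0.46 (SE 0.16; limma adjusted p = 0.115), with control arrays 2 and 3 at 5.80 and 5.74 and the other control arrays at 6.31 and 6.37. Probe 5 was detected on 2 arrays of each group and changed by 0.20 (SE 0.18; adjusted p = 0.514), knockout-labelled array 3 being the lowest of the 8 at 5.33 and array 4 the highest at 6.29. By intensity, array 4 of the knockout-labelled group was the highest of the 8 for all 5 probes; after normalization it was the highest for probes 2, 3 and 5 and level with array 2 for probe 4.

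**Figure D3:**
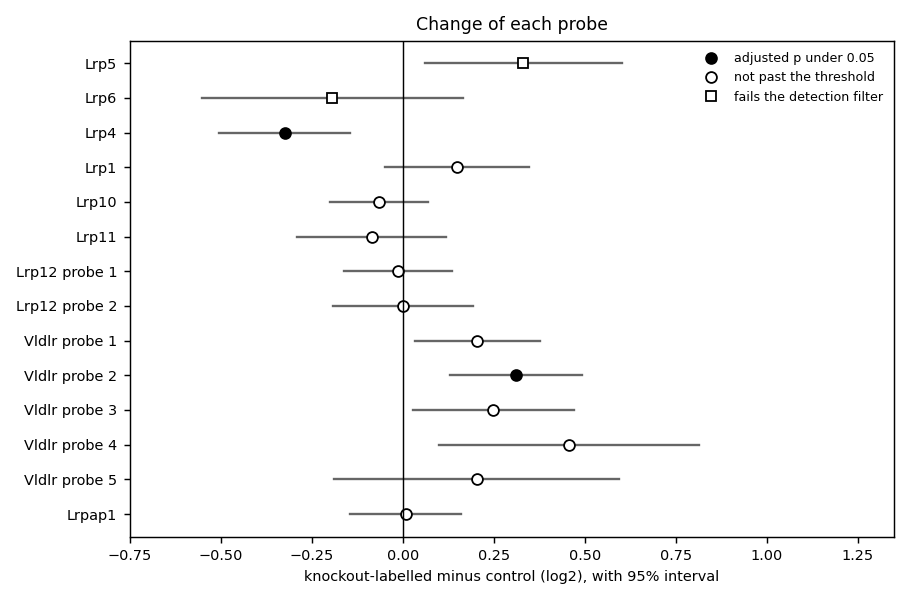
Change of each probe, knockout-labelled minus control in log2, with its 95% interval from limma; circles are the 12 probes of the fit with each detected probe on its own and squares the 2 from the fit without a detection filter. Lrp4 (-0.32) and Vldlr probe 2 (0.31) are filled as past an adjusted p of 0.05, and the 5 Vldlr probes all lie above 0.

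Lrp1, a large endocytic receptor for apolipoprotein E, proteases and matrix proteins, showed no difference beyond the spread between arrays. The intensity of ILMN_1237723 was 293, 360, 311 and 337 in control and 319, 303, 284 and 391 in knockout-labelled arrays. Normalized, knockout-labelled arrays 1 and 4, at 8.02 and 7.93, lay above all control values (7.57 to 7.72), and arrays 2 and 3, at 7.67 and 7.68, lay within them. The change was 0.15 (SE 0.09; 95% interval -0.05 to 0.34; limma adjusted p = 0.319; exact permutation p = 0.286).

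Lrpap1, which encodes the receptor-associated protein that keeps ligands off these receptors in the endoplasmic reticulum, averaged 12.01 ± 0.08 over control and 12.02 ± 0.08 over knockout-labelled arrays (SD, n = 4). Its probe, ILMN_2761472, was detected on all 8 arrays, with intensities of 4139 to 4598 in control and 3946 to 4486 in knockout-labelled arrays. The change was 0.01 (95% interval -0.14 to 0.16; limma adjusted p = 0.960) and the 95% interval of the fold ran from 0.907 to 1.11.

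Lrp10, a receptor of the family found in the Golgi and endosomes, averaged 12.20 ± 0.02 over control and 12.13 ± 0.08 over knockout-labelled arrays (SD, n = 4). Its intensity on ILMN_2760430 was 4504 to 5467 in control and 4030 to 4941 in knockout-labelled arrays. After normalization knockout-labelled arrays 3 and 4, both at 12.06, lay below the control range of 12.16 to 12.22, and arrays 1 and 2, at 12.19 and 12.20, lay inside it. The change of -0.07 (95% interval -0.20 to 0.06; limma adjusted p = 0.513) was 0.000983 with the arrays scaled to a common 75th percentile.

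Lrp11 averaged 9.01 ± 0.14 over control and 8.93 ± 0.15 over knockout-labelled arrays (SD, n = 4). Knockout-labelled array 2 was at 9.15, while the other 3 lay at 8.84 to 8.86. Its probe, ILMN_2672708, changed by -0.09 (95% interval -0.29 to 0.12; limma adjusted p = 0.589). The change was -0.159 without knockout-labelled array 2 (adjusted p = 0.295) and -0.026 without control array 4 (0.883).

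Lrp12 had a pair of probes. The brighter, ILMN_2819951, averaged 9.42 ± 0.11 over control and 9.41 ± 0.03 over knockout-labelled arrays (SD, n = 4), a change of -0.01 (95% interval -0.16 to 0.13; limma adjusted p = 0.927) that was 0.013 with 75th percentile scaling. The other, ILMN_2703738, was 7.97 ± 0.12 and 7.97 ± 0.13, a change of 0.00 (limma adjusted p = 0.998). Neither probe differed by more than the spread between arrays.

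Other genes of the family gave no measurable transcript. Lrp2, Lrp1b, Sorl1, Lrp2bp, Ldlrad1, Ldlrad2, Ldlrad3 and Ldlrad4 were detected on 0 of 8 arrays with any probe, and Lrp3 had no named probe and is not analysed here.

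The genes that work with Lrp5 and Lrp6 at the membrane were examined next. Of 19 genes of the coreceptor machinery with a named probe, 9 passed the detection filter, 0 rose and 0 fell, where 8.62% of all genes tested were called. Their median change was 0.05. The Frizzled receptors Fzd1 and Fzd7 changed by 0.07 and 0.07, Fzd2 by -0.01 and Fzd6 by -0.19 (limma adjusted p 0.349 to 0.980). Ctnnb1, which encodes beta-catenin, changed by -0.17 (adjusted p = 0.164), and by -0.04 on another detected probe. Gsk3b, the kinase that marks beta-catenin for breakdown, changed by 0.05 (adjusted p = 0.834).

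Among 18 secreted and membrane regulators of Lrp5 and Lrp6 with a named probe, 6 passed the filter, 2 rose and 0 fell, with a median change of 0.20. Over all genes tested, 3.54% were called higher and 5.08% lower. The 2 regulators that rose were R-spondins, secreted proteins that raise the level of Wnt receptors at the cell surface. Rspo2 rose from 8.73 ± 0.06 to 9.09 ± 0.11 (SD, n = 4; change 0.36, SE 0.07; limma adjusted p = 0.0142), and Rspo3 from 10.06 ± 0.08 to 10.41 ± 0.06 (0.35, SE 0.06; limma adjusted p = 0.0106). For both, all 4 knockout-labelled arrays were above all 4 control arrays. Of all genes tested, 16.8% showed such a separation in one direction or the other. Kremen1, a receptor for Dickkopf proteins, changed by 0.33 with wide scatter (95% interval -0.01 to 0.68; adjusted p = 0.206). The antagonists Dkk1, Dkk2 and Sost, which encodes sclerostin, were detected on no array.

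Of 19 ligands and binding partners of the family with a named probe, 16 passed the filter, 2 rose and 1 fell, with a median change of 0.11. The shares over all genes tested were 3.54% higher and 5.08% lower. Plau, the urokinase that Lrp1 helps to clear, fell from 7.97 ± 0.04 to 7.55 ± 0.21 (SD, n = 4; change -0.42, SE 0.10; limma adjusted p = 0.0262). Thbs2, a thrombospondin bound by Lrp1, rose by 0.31 (SE 0.07; adjusted p = 0.0213), from 13.53 ± 0.08 to 13.84 ± 0.08. Pdgfrb, a growth factor receptor known to associate with Lrp1 and not a soluble ligand, rose by 0.36 (SE 0.08; adjusted p = 0.0200), from 7.75 ± 0.13 to 8.12 ± 0.09. Each of these 3 calls was lost when some arrays were left out. Plau was lost on leaving out any 1 of control arrays 1 to 3 or knockout-labelled array 3 (limma adjusted p 0.0503 to 0.0696) and with no detection filter (0.0600), Thbs2 on leaving out array 2 of either group or array 4 of the knockout-labelled group (0.0505 to 0.0651), and Pdgfrb without knockout-labelled array 1 or 2 (0.0544 and 0.0598). Agrn, the ligand of Lrp4, changed by 0.14 (adjusted p = 0.219), and Apoe, a ligand of Lrp1 and Vldlr, by -0.08 (adjusted p = 0.720). Lpl, the lipoprotein lipase that Vldlr can bind, changed by 0.12 (adjusted p = 0.345).

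Adaptors, proteases and turnover genes of the family gave 0 rises and 0 falls among 11 that passed the filter (of 17 with a named probe), with a median change of -0.02. Sort1, a sorting receptor, changed by -0.27 (95% interval -0.47 to -0.08; limma adjusted p = 0.0787), and Dab2, the endocytic adaptor that binds the tails of these receptors, by -0.17 (-0.30 to -0.04; adjusted p = 0.0961). Another detected probe gave -0.10 for Sort1 and -0.18 for Dab2. The sheddase gene Adam17 and the gamma-secretase subunit genes Ncstn, Psenen and Aph1a changed by -0.02, 0.02, 0.04 and -0.01. Over all these lists 42 genes passed the filter and 5 were called, 11.9%, against 8.62% of all genes tested.

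**Figure D4:**
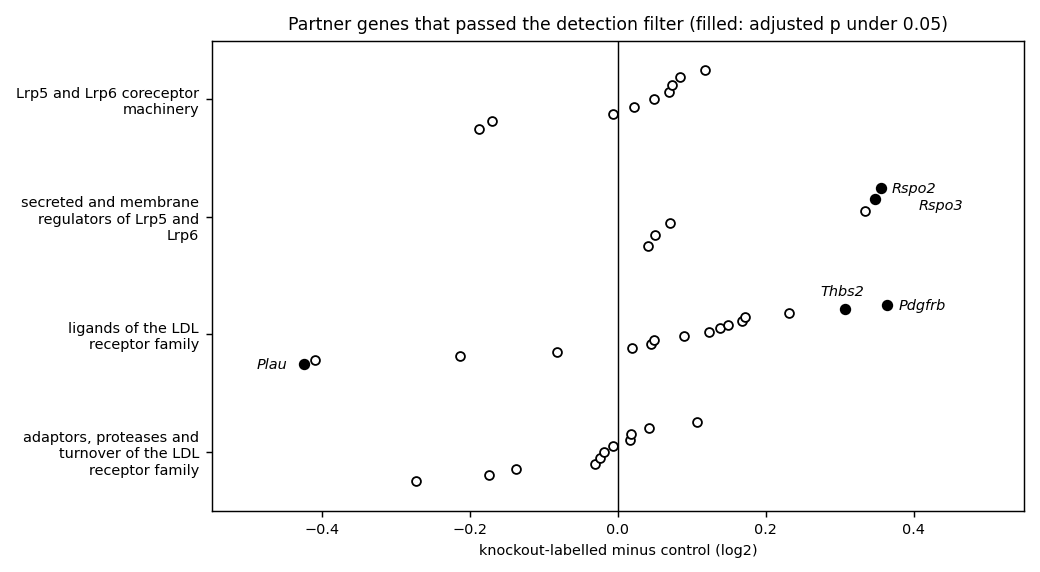
Change of the 42 partner genes that passed the detection filter, knockout-labelled minus control in log2, each point 1 gene, in 4 lists. Filled points passed an adjusted p of 0.05 in limma, namely Rspo2 (0.36), Rspo3 (0.35), Thbs2 (0.31), Pdgfrb (0.36) and Plau (-0.42).

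The genes whose pattern over the 8 arrays was most like that of 2 members were found by the root mean square distance between standardised log2 values, where 0 is an identical pattern. Nearest to Lrp5 among 7041 genes were Maml1 (distance 0.218), Cpsf6 (0.283) and Zfp758 (0.323), the median gene being at 1.33. Their changes were 0.31, 0.22 and 0.26, and none passed the threshold (limma adjusted p = 0.0741, 0.110 and 0.0568). Nearest to Lrp4 among the other 7040 genes were Daglb (0.140), Wfdc2 (0.161) and Ccdc3 (0.197). Ccdc3 fell by 0.72 (SE 0.13; adjusted p = 0.00946), Wfdc2 fell by 0.38 (SE 0.10; adjusted p = 0.0400) and Daglb changed by -0.27 (SE 0.08; adjusted p = 0.0606). Each had its lowest value on knockout-labelled array 2, as for Lrp4. These genes, and those nearest to Lrp5, were picked by likeness over the arrays of both groups. Sharing the direction and array pattern of the member therefore follows from the choice and is not a separate result.

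**Figure D5:**
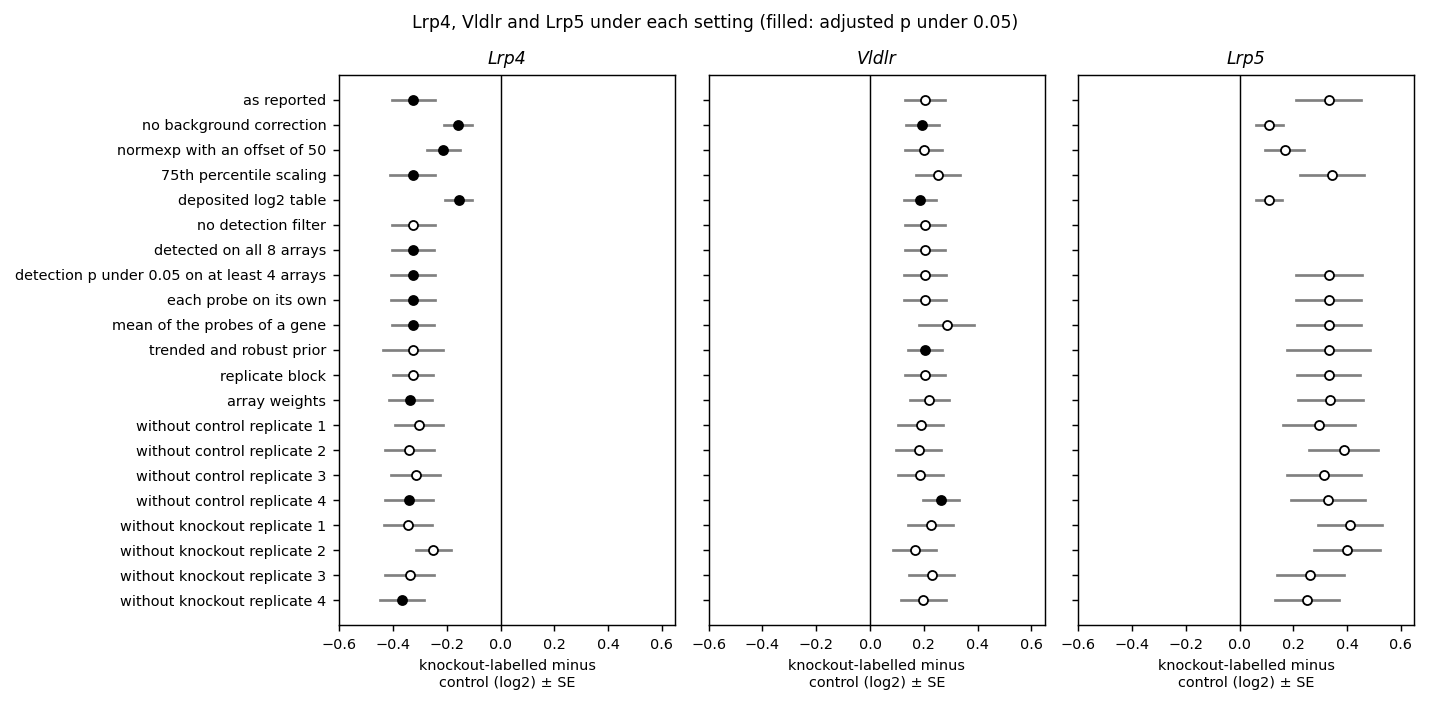
Change of Lrp4, Vldlr (probe 1, or the mean of its probes where named) and Lrp5 ± SE under each processing setting and with each array left out; filled points passed an adjusted p of 0.05 in limma. Lrp4 lies between -0.37 and -0.16, Vldlr between 0.17 and 0.28 and Lrp5 between 0.11 and 0.41, and no setting placed Lrp5 past the threshold.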

How the data were processed

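GenomeStudio is the only tool named, with no version, per the submitters' processing notes. The authors deposited a linear signal intensity per probe and array, not normalized or background-subtracted to judge by its values (lowest 91.6), and a detection p-value column that rises with signal; detection p-values here are therefore 1 minus the deposited ones. A deposited log2 table, with a median of 6.89 on control array 1, was used only as an alternative. Its background treatment and scale are not given in the sources used here.

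Intensities were background-corrected and quantile-normalized by neqc (offset 16) of limma 3.58.1 in R 4.3.3. Probes detected (p under 0.01) on at least 4 of 8 arrays were kept (10004 of 25697). The probe with the highest mean stood for a gene, and 7041 genes were tested with lmFit and eBayes, Benjamini-Hochberg adjusted at 0.05. Members failing the filter were taken from the same fit on all 16593 genes. The number of arrays limits the precision. Intervals are at 95%. The steps were tested on simulated data. The platform annotation named 23978 probes and left 1719 unnamed; no build is named, so no coordinates are given. No pair of arrays held identical values (0 of 28).

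The members and lists were chosen with earlier results of these data known. Named are all members, the list genes past the threshold, with other list members given as values outside that rule and chosen after their values were seen, and the 3 genes nearest in pattern to Lrp5 and to the member with the smallest p. Alternatives were no background correction, normexp (offset 50), 75th percentile scaling, the deposited log2 table, other detection filters, each probe on its own, the mean of a gene's probes, a trended and robust prior, array weights, a replicate block, and each array left out after normalization.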

Additional observations from a re-analysis of the deposited data

Results flagged for a closer look

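Of 28 sets of 4 values (14 probes in each group), 2 held an array far from the other 3 by Dixon's test at the 95% level, a test that flags about 1 set in 20 by chance. The Lrp11 value of knockout-labelled array 2 was 9.15, above the other 3 knockout-labelled arrays at 8.84 to 8.86. The value of Vldlr probe 1 on control array 4 was 11.07, above the other 3 control arrays at 10.82 to 10.84; without that array the Vldlr change was 0.26 (limma adjusted p = 0.0389) in place of 0.20 (0.120).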

How the results depend on the processing

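The number of genes changed was 607 of 7041 (249 higher, 358 lower), 979 with no background correction, 971 in the deposited log2 table, 376 with no detection filter, 965 with a trended and robust prior and 323 to 718 with 1 array left out; with 75th percentile scaling 338 were higher and 315 lower. Of the members, 1 passed as reported, 2 with no background correction, in the deposited log2 table and with each probe on its own, 0 with no detection filter and 0 with the replicate block, and 0 to 2 with 1 array left out. Of the partner genes, 5 passed as reported, 10 with no background correction, 10 in the deposited log2 table, 8 with a trended and robust prior and 3 to 6 with 1 array left out. Changes near 0 turned sign: Lrp10 to 0.000983 and Lrp12 to 0.013 with 75th percentile scaling, and with 1 array left out Lrp12 ranged from -0.046 to 0.037 and Lrpap1 from -0.032 to 0.033. Where values moved, the cause was not tested.

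The Lrp5 difference stayed above 0 and short of the threshold under the 10 alternatives that gave a value (detection on all 8 arrays left out Lrp5 and Lrp6) at 0.11 to 0.34, and with each array left out (0.25 to 0.41; limma adjusted p 0.156 to 0.397). A filter chosen after seeing the data, detection p under 0.05 on at least 4 arrays, admitted all 9 members with a probe; Lrp5 did not pass in it (0.33; adjusted p = 0.141). The deviations of same-numbered arrays from their group means correlated at 0.08, -0.03, 0.00 and 0.03. Arrays of unlike number gave -0.10 to 0.12. Such low correlations do not decide whether the numbers pair the cultures. With the replicate block 408 genes were called. The limma adjusted p in that fit was 0.262 for Lrp5 (change 0.33), 0.0511 for Lrp4 and 0.0619 for Thbs2. The signals of Lrp5, Lrp6 and Vldlr probe 5 lie near background, which limits what their differences can show.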
